A study of Mus musculus with 6 samples.

Results

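A set of 58 mouse genes for ribosome assembly was described in embryonic stem cells with lowered Nat10. The set was defined by name: 59 symbols of the small-subunit processome and its neighbours in the nucleolus were looked up, and 58 were found among the 31641 genes of the deposited table. The symbol Noc had no match. RNA was sequenced from E14, a line of mouse embryonic stem cells, after poly(A) selection. The control group (CON, 3 libraries) carried wild-type Nat10 and was grown without doxycycline. The knockdown group (KD, 3 libraries) was given doxycycline and carries the genotype label Nat10 KD. The labels do not describe the knockdown construct. Every KD library and no CON library had the drug, so doxycycline and knockdown cannot be told apart. Nothing in the labels says that the 3 libraries of a group came from separate cultures. The p-values therefore reflect only the spread among these samples, and that spread may be technical.

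Ribosomes are built in the nucleolus. RNA polymerase I makes a long precursor RNA there, and the small-subunit processome forms on it as it is made. The processome holds the UTP-A, UTP-B and MPP10 complexes and the U3 snoRNP, a particle in which a small nucleolar RNA pairs with the precursor and guides its folding and cleavage. Other factors then carry the small (40S) and large (60S) subunits to maturity and leave them before translation. Embryonic stem cells divide fast and are known for large nucleoli and high expression of these genes.

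Library totals ran from 33770755 to 39524273 counts, and the members' raw counts from 379 to 75883 per library. Nat10, an RNA acetyltransferase that itself works on the small-subunit RNA, was read first as a check of the labels. It stood at 146, 151 and 149.9 CPM in CON and at 26.2, 27.2 and 28.7 CPM in KD, 5.44-fold lower in KD (edgeR adjusted p = 4.21e-14, log2 fold change -2.44, SE 0.054). CPM are counts scaled to a common library size by TMM, which assumes no change for most genes. Library values below follow the order CON-1, CON-2, CON-3 and KD-1, KD-2, KD-3, means carry the SD of 3 libraries, and a fold change sets KD against CON, with SE for its standard error. All 12 embryonic stem cell markers tested fell. Sums over a marker list are scaled by library total only, whereas values of single markers are TMM-scaled. The median log2 fold change of all genes was 0.23 higher with scaling by library total than with TMM. The summed stem cell markers stood at 7219.9 to 7245 CPM in CON and at 2968 to 3099 CPM in KD. The summed level of 8 fibroblast markers was 27.5 to 32.5 CPM in CON and 61.6 to 73.0 CPM in KD, with none at 0 in all libraries. The 5 of them that were tested did not move alike: Col1a2 (1.53 ± 0.234 to 16.6 ± 1.68 CPM), Pdgfrb (11.1 ± 0.514 to 27.3 ± 0.961 CPM) and Col1a1 rose, Thy1 fell 2.0-fold and Twist1 did not pass. Sums of 8 primitive endoderm markers ran from 319 to 327 CPM in CON and from 290.5 to 299.7 CPM in KD. Those of 7 neural markers ran from 69.6 to 73.9 against 88.3 to 92.3 CPM. Those of 7 trophoblast markers ran from 182 to 195 against 209 to 225 CPM. None of these sums is TMM-scaled, and a small difference between them can change direction with the scaling. Members of these lists also moved in opposite directions. Of 5 neural markers tested 3 fell, among them Tubb3 (37.2 ± 1.27 to 5.64 ± 0.238 CPM), and Nes and Map2 rose. Of 7 trophoblast markers 4 fell, among them Hand1 (28.3 ± 1.29 to 4.88 ± 0.317 CPM), and 3 rose. Of 8 primitive endoderm markers 2 fell, 2 rose and 4 did not pass, and most of their sum was Col4a1 (301 ± 6.62 to 228 ± 5.3 CPM). The part of these marker differences in the results below was not tested.

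Most ribosome assembly genes were lower in KD. Of the 58 members, all of which passed the filter on low counts, 52 fell and 6 did not pass (edgeR quasi-likelihood test, Benjamini-Hochberg adjusted p under 0.05). Over all 18019 genes tested, 30.8% were called lower and 32.2% higher. Among the 9325 tested genes at or above the level of the least abundant member (Utp23, mean 13.6 CPM), 42.5% were called lower. No member was called higher, either by edgeR, where 0 members were higher even at an unadjusted p under 0.05, or by DESeq2. A fall of at least 1.5-fold was called in 31 members, against 15.0% of all genes. The 3 KD libraries all lay below the 3 CON libraries in 53 members, which held for 32.8% of all genes, and the groups overlapped in the other 5. The median log2 fold change of the members was -0.59, from -1.34 (Nop58) to 0.09 (Bms1), against 0.02 for all genes tested. In bulk RNA, fewer cells of a type and less RNA per cell cannot be told apart.

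**Figure D1:**
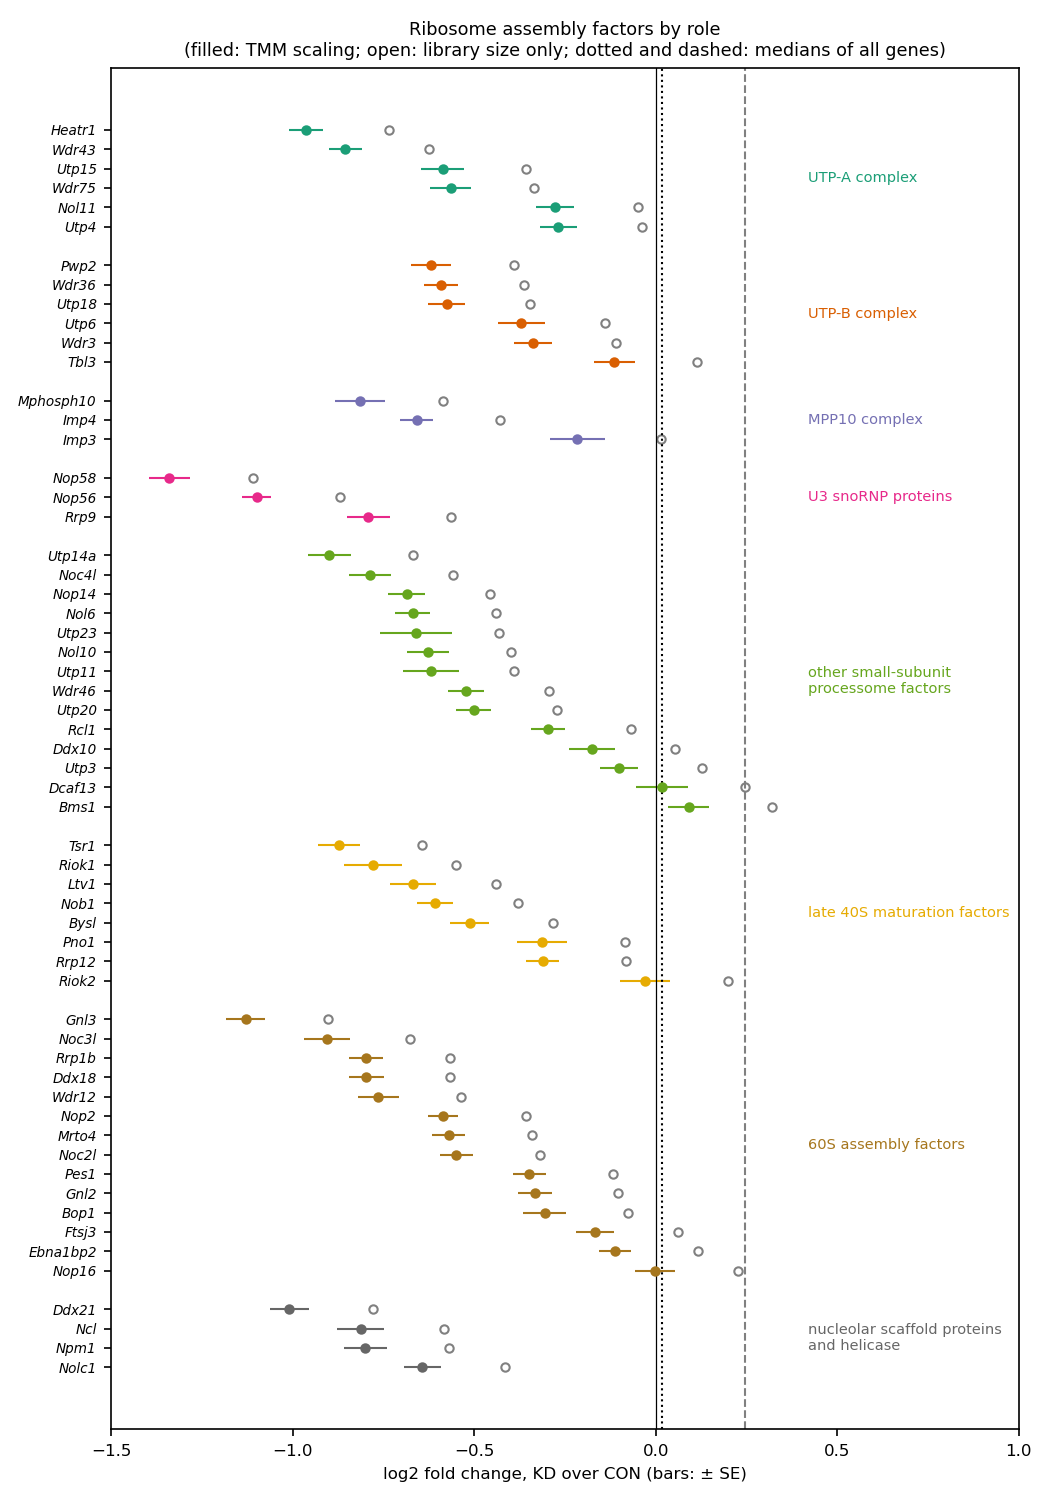
Log2 fold change (KD over CON, TMM scaling) with its standard error for each of the 58 members, grouped by role (filled points), with the value under scaling by library size as an open point and the median of all genes as a dotted (TMM) or dashed (library size) line. The 3 U3 snoRNP proteins lie between -1.34 and -0.79, and Bms1, at 0.09, is the highest member.

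These counts depend on how libraries are scaled. When libraries were scaled by their total count only, the median of all genes moved up by 0.23 log2 units, 19.6% of genes were called lower and 46.0% higher, and 39 members fell, 6 rose and 13 did not pass. The member median was then -0.36. Relative to the median of all genes it lay at -0.61 under both scalings. That equality follows from the arithmetic, because a change of scaling shifts all genes nearly alike, and is no check of the result. The call of 18 members differed between the scalings, and these are named with their role below.

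The U3 snoRNP proteins had the lowest median log2 fold change of the 8 roles, at -1.10, with Nop58, Nop56 and Rrp9 at places 1, 3 and 15 among the members' falls. Nop56 and Nop58 form the paired core of box C/D snoRNPs, the particles that guide methylation of ribosomal RNA, and Rrp9 is the protein particular to the U3 particle. Nop58 stood at 369, 331 and 344 CPM in CON and at 130.5, 134 and 149.6 CPM in KD. The fall was 2.52-fold (log2 -1.34, SE 0.057, edgeR adjusted p = 2.75e-11), the largest of any member. Every KD library lay far below every CON library. Nop56 stood at 375, 373 and 382 CPM against 171, 178 and 178 CPM, a 2.14-fold fall (log2 -1.10, SE 0.041, edgeR adjusted p = 6.21e-12). Libraries within each group were nearly level, and the groups did not overlap. Rrp9 went from 112 ± 5.07 to 64.8 ± 4.87 CPM, a 1.73-fold fall. All 3 were also called lower with scaling by library size.

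Promoter windows of 4 members show the range of the set. They were chosen after their values were seen: Nop58 has the largest fall, Wdr43 and Nop2 are fallers that carry the E-box CACGTG, and Bms1 is the member with the highest fold change. Each window runs from 250 bases before to 50 bases after the RefSeq start (GRCm38.p6) on the gene's strand, 5′ to 3′. Capitals mark CACGTG, or CCGGAAG read on either strand. The windows lie at chr1:59684756-59685055 (Nop58, forward strand), chr17:71615965-71616264 (Wdr43, forward), chr6:125131633-125131932 (Nop2, forward) and chr6:118419368-118419667 (Bms1, reverse).
Nop58: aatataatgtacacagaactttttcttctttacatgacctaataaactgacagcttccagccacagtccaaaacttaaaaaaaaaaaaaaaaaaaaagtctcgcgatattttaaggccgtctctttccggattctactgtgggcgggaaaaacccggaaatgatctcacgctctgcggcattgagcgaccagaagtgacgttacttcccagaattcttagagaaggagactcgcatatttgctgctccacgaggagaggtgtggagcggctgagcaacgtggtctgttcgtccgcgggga
Wdr43: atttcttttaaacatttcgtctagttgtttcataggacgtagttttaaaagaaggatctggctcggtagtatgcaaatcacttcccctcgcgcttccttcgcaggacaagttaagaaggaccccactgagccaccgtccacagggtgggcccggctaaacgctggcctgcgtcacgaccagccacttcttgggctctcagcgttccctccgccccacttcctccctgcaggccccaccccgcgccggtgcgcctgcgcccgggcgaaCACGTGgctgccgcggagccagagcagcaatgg
Nop2: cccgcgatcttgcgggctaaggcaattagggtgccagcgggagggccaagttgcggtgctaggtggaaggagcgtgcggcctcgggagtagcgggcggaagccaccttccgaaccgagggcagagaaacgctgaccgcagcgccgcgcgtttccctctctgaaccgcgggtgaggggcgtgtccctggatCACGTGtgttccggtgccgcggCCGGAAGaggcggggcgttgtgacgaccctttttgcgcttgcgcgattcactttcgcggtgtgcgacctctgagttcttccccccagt
Bms1: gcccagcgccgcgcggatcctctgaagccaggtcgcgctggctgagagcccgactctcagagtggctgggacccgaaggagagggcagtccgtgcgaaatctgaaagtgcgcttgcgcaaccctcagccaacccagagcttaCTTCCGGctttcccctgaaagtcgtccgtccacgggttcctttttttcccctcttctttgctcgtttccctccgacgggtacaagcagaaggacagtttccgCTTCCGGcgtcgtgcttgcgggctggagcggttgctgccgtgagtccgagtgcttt
The Nop58 window holds neither motif. That of Wdr43 has CACGTG at position 18 after the start, that of Nop2 has CACGTG at -60 and CCGGAAG at -38, and that of Bms1 has CCGGAAG on the reverse strand, as CTTCCGG, at -108 and -6.

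Both motifs were counted in every window. CACGTG reads the same on both strands and is the E-box bound by Myc and related factors, and CCGGAAG is a core bound by ETS factors, added after the data were seen. CCGGAAG was searched as itself and as CTTCCGG, which can share letters where they meet, and neither holds CACGTG. Windows were found for 47 members and not for Tbl3, Wdr36, Utp6, Nol6, Utp11, Utp23, Dcaf13, Rrp12, Bop1, Gnl2 and Npm1. CACGTG was in 12 of the 47 (25.5%), in 11.2% of tested genes with a window and in 8.09% of all genes with a window. CCGGAAG was in 18 of 47 members (38.3%), 17.7% of tested genes and 9.93% of all. The 12 members with CACGTG all fell, their median log2 fold change being -0.55, and of the 35 without it 31 fell, with a median of -0.63. Of the 18 members with CCGGAAG 16 fell, with a median of -0.58, and of the 29 without it 27 fell, with a median of -0.66. The letters of a window say nothing here about which factor acts on it.

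The UTP-A complex, which binds the precursor RNA first, fell throughout. All 6 members were called lower and 3 of them by at least 1.5-fold, with a median log2 fold change of -0.58. Heatr1, a large scaffold of helical repeats, stood at 212, 213 and 209.8 CPM in CON and at 105, 106 and 115 CPM in KD, a 1.95-fold fall (log2 -0.96, SE 0.048, edgeR adjusted p = 1.36e-10). Wdr43 stood at 241, 236 and 241 CPM against 131, 127 and 139 CPM, a 1.81-fold fall (log2 -0.86, SE 0.046, edgeR adjusted p = 3.46e-10). In both genes the 2 groups were far apart. Utp15 and Wdr75, which carry WD repeats like much of the complex, fell 1.5-fold and 1.48-fold. The smallest falls were in Utp4, with 156, 164 and 159 CPM against 131, 125 and 141 CPM (log2 -0.27, SE 0.051, edgeR adjusted p = 0.000284), and in Nol11, with 105, 106 and 99.9 CPM against 82.9, 82.9 and 90 CPM (log2 -0.28, SE 0.051, edgeR adjusted p = 0.000215). Their groups were apart, but neither passed with scaling by library size (log2 -0.04 and -0.05, edgeR adjusted p = 0.52 and 0.42).

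The UTP-B complex, a rod-shaped assembly beside the U3 particle made mostly of WD-repeat proteins, had 1 member that did not pass. Of its 6 members 5 fell, 2 by at least 1.5-fold, and the median log2 fold change was -0.47. Wdr36 stood at 159, 149 and 154 CPM against 103, 99.6 and 104 CPM, a 1.51-fold fall (log2 -0.59, SE 0.047, edgeR adjusted p = 2.86e-08). Utp18 stood at 84.1, 80.6 and 79.5 CPM against 54.3, 55.2 and 54.4 CPM, a 1.49-fold fall (log2 -0.58, SE 0.051, edgeR adjusted p = 1.03e-07). The KD libraries of Utp18 were almost level with each other and lay below all CON libraries. Pwp2, a structural subunit, fell 1.54-fold. Wdr3, at 81.4, 80.9 and 84.5 against 62.7, 66.0 and 66.7 CPM, and Utp6, at 104, 95.4 and 97.9 against 72.2, 73.3 and 85.0 CPM, fell 1.26-fold and 1.29-fold. Both had separate groups and missed the threshold with scaling by library size (edgeR adjusted p = 0.0769 and 0.0674). Tbl3 did not pass, with 102, 103 and 101 CPM in CON and 99.9, 97.3 and 86.2 CPM in KD (log2 -0.11, SE 0.057, edgeR adjusted p = 0.0918). Its KD-3 library was the lowest and KD-1 lay just under CON, and without KD-1 the adjusted p was 0.0275. Tbl3 shares 2122 exonic bases with Noxo1 on the opposite strand, and reads of the pair cannot be told apart without a strand setting.

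The MPP10 complex bridges the U3 RNA and the precursor. Its scaffold Mphosph10 stood at 82.5, 78.7 and 84.3 CPM in CON and at 41.4, 47.2 and 50.9 CPM in KD, a 1.76-fold fall (log2 -0.82, SE 0.069, edgeR adjusted p = 5.75e-08). Its partner Imp4, an RNA-binding protein, stood at 139, 137 and 136 CPM against 86.4, 90.2 and 84.7 CPM, a 1.58-fold fall (log2 -0.66, SE 0.047, edgeR adjusted p = 7.84e-09). Both had KD values well under every CON value. Imp3, the remaining partner, changed least, from 39.6, 45.3 and 41.0 CPM to 37.9, 38.1 and 32.3 CPM (log2 -0.22, SE 0.076, edgeR adjusted p = 0.0221). The Imp3 groups lay close, its call was lost without CON-2 (adjusted p = 0.132), and with scaling by library size its log2 fold change was 0.013.

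**Figure D2:**
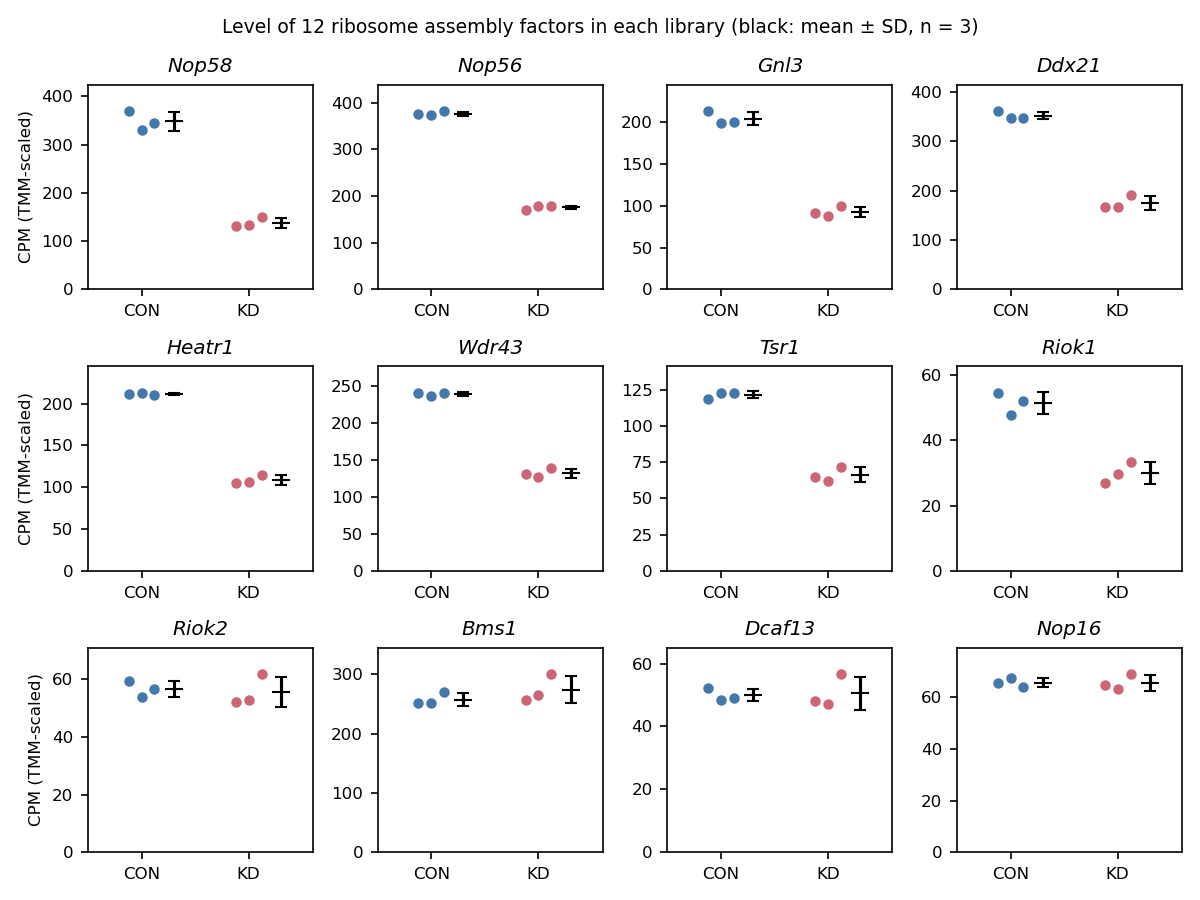
CPM in each of the 6 libraries (vertical axis from 0) for 12 members, with the mean and SD of each group in black. Nop58 and Nop56 show wide gaps between the groups, whereas the CON and KD points of Bms1, Dcaf13, Riok2 and Nop16 overlap.

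Of 14 other small-subunit processome factors, 11 fell, 7 of them by at least 1.5-fold, and the median log2 fold change was -0.57. Utp14a, which activates a helicase that frees the U3 RNA, stood at 82.5, 76.1 and 80.8 CPM against 41.2, 41.5 and 45.7 CPM, a 1.86-fold fall (log2 -0.90, SE 0.060, edgeR adjusted p = 3.93e-09). Nol6 stood at 291, 309 and 302 CPM against 196, 194 and 178 CPM, a 1.59-fold fall (log2 -0.67, SE 0.048, edgeR adjusted p = 8.66e-09). Neither gene had overlapping groups. The partners Nop14 and Noc4l fell 1.61-fold and 1.73-fold, Nol10 and Utp11 both 1.54-fold, and Utp23, the member with the lowest mean CPM, 1.58-fold. Utp20, a large repeat scaffold, fell 1.42-fold and Wdr46 1.44-fold. Rcl1 stood at 94.0, 94.2 and 95.7 CPM against 76.7, 76.8 and 77.5 CPM, and Ddx10, a helicase, at 88.2, 84.6 and 89.6 against 71.8, 74.6 and 86.1 CPM. Rcl1 had tight, separate groups (log2 -0.30, SE 0.047, edgeR adjusted p = 4.52e-05), but its adjusted p with scaling by library size was 0.211. In Ddx10 the KD-3 library reached into the CON range (log2 -0.18, SE 0.064, edgeR adjusted p = 0.0261). Its call was lost without CON-1, CON-3, KD-1 or KD-2 (adjusted p from 0.0573 to 0.0945), and its log2 fold change was 0.05 with scaling by library size.

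The 3 members of this group that did not pass were Utp3, Dcaf13 and Bms1. Bms1, the GTPase of the processome and the binding partner of Rcl1, stood at 251, 251 and 270.4 CPM in CON and at 257, 265 and 300.3 CPM in KD (log2 0.09, SE 0.056, edgeR adjusted p = 0.179). Dcaf13 stood at 52.1, 48.5 and 49.2 CPM against 48.2, 47.0 and 56.6 CPM (log2 0.02, SE 0.071, edgeR adjusted p = 0.841). The groups overlapped in both genes, with KD-3 the highest library. Utp3 stood at 73.7, 72.0 and 75.7 CPM against 66.4, 67.8 and 71.9 CPM (log2 -0.10, SE 0.053, edgeR adjusted p = 0.106), with KD-3 just under the lowest CON library, and without KD-3 its adjusted p was 0.01. With scaling by library size all 3 were called higher, at log2 fold changes of 0.32 (Bms1), 0.25 (Dcaf13) and 0.13 (Utp3).

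Late 40S maturation factors escort the small subunit out of the nucleolus and make its last cleavage. Of 8 members 7 fell, 4 by at least 1.5-fold, and the median log2 fold change was -0.56. Tsr1, which blocks early translation factors from binding, stood at 119, 123 and 123 CPM against 65.0, 62.0 and 72.0 CPM, a 1.83-fold fall (log2 -0.87, SE 0.057, edgeR adjusted p = 3.3e-09). Nob1, the endonuclease that cuts the 3′ end of the small-subunit RNA, stood at 109, 109 and 116 CPM against 73.0, 70.7 and 75.1 CPM, a 1.52-fold fall (log2 -0.61, SE 0.050, edgeR adjusted p = 4.39e-08). The KD libraries of both genes were lower than any CON library. Tsr1 shares 1240 exonic bases with Srr on the opposite strand. Ltv1, an export-competence factor, fell 1.59-fold, Bysl 1.43-fold and the atypical kinase Riok1 1.72-fold. Rrp12, at 128, 133 and 132 against 108, 105 and 103 CPM, and Pno1, the partner of Nob1, at 41.4, 40.6 and 40.3 against 31.6, 31.0 and 35.9 CPM, both fell 1.24-fold. Their groups were separate, and their adjusted p with scaling by library size was 0.121 and 0.3. Riok2, another kinase of this step, stood at 59.2, 53.9 and 56.5 CPM against 52.0, 52.8 and 61.6 CPM (log2 -0.03, SE 0.069, edgeR adjusted p = 0.734). Its groups overlapped, and it was called higher with scaling by library size (log2 0.20).

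Of 14 factors of the large subunit, 13 fell, 6 by at least 1.5-fold, with a median log2 fold change of -0.56. Gnl3 (nucleostemin), a nucleolar GTPase abundant in stem cells, stood at 213, 199 and 200.3 CPM against 91.3, 88.2 and 99.5 CPM, a 2.19-fold fall (log2 -1.13, SE 0.053, edgeR adjusted p = 8.34e-11). Rrp1b stood at 149, 159 and 150 CPM against 87.9, 87.2 and 88.4 CPM, a 1.74-fold fall (log2 -0.80, SE 0.047, edgeR adjusted p = 1e-09). In both, CON and KD were far apart, and the 3 KD libraries of Rrp1b were almost level. The helicase Ddx18 fell 1.74-fold and Noc3l 1.87-fold, Noc2l fell 1.46-fold, Mrto4 1.49-fold and the RNA methyltransferase Nop2 1.5-fold.

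The PeBoW complex, made of Pes1, Bop1 and Wdr12, did not fall evenly: Wdr12 fell 1.7-fold, Pes1 1.27-fold and Bop1 1.24-fold. Bop1 stood at 95.9, 96.7 and 98.3 CPM against 84.5, 79.5 and 71.2 CPM and Gnl2, a GTPase related to Gnl3, at 135, 133 and 134 against 103, 106 and 111 CPM. Both had separate groups, and their adjusted p with scaling by library size was 0.268 and 0.0687. Ftsj3, a methyltransferase, stood at 180.1, 179.6 and 188 CPM against 157, 154 and 176 CPM (log2 -0.17, SE 0.053, edgeR adjusted p = 0.0114). Its KD-3 library lay close under CON, and its call was lost without CON-3 or KD-2 (adjusted p = 0.0564 and 0.0638). Ebna1bp2 stood at 123, 125 and 125 CPM against 114, 118 and 113 CPM (log2 -0.11, SE 0.045, edgeR adjusted p = 0.0402). This small difference was lost without CON-1, CON-2, CON-3 or KD-1 (adjusted p from 0.0544 to 0.107). Nop16 did not pass, at 65.4, 67.2 and 63.8 CPM against 64.5, 62.9 and 68.7 CPM with overlapping groups (edgeR adjusted p = 0.972). With scaling by library size Ftsj3 had a log2 fold change of 0.06 and did not pass, and Ebna1bp2 (log2 0.12) and Nop16 (log2 0.23) were called higher.

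The abundant nucleolar proteins fell together. All 4 were called lower by at least 1.5-fold, with a median log2 fold change of -0.81. Ddx21, a helicase that links RNA polymerase I transcription and RNA processing, stood at 361, 348 and 348 CPM against 166, 167 and 191 CPM, a 2.01-fold fall (log2 -1.01, SE 0.053, edgeR adjusted p = 3.17e-10). Npm1 (nucleophosmin), a scaffold of the outer nucleolus, stood at 1643, 1513 and 1571 CPM against 819, 887 and 1008 CPM, a 1.74-fold fall (log2 -0.80, SE 0.060, edgeR adjusted p = 1.58e-08). KD-3 was the highest KD library of both, still far under CON. Ncl (nucleolin) fell 1.76-fold from 2153 ± 64.7 CPM and Nolc1, a chaperone of snoRNPs, 1.56-fold from 230.1 ± 5.27 CPM.

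KD-3 was the highest KD library for 42 of the 58 members, against 8 each for KD-1 and KD-2. The same count was not made over all genes tested, so this may not be particular to the members. The members together took 1.07 ± 0.02% of all counts in CON and 0.797 ± 0.0454% in KD, with 0.848% in KD-3. Without Ncl and Npm1 the shares were 0.723 ± 0.00569% and 0.566 ± 0.0186%. Without KD-3, 53 members were called lower and the member median was -0.62.

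**Figure D3:**
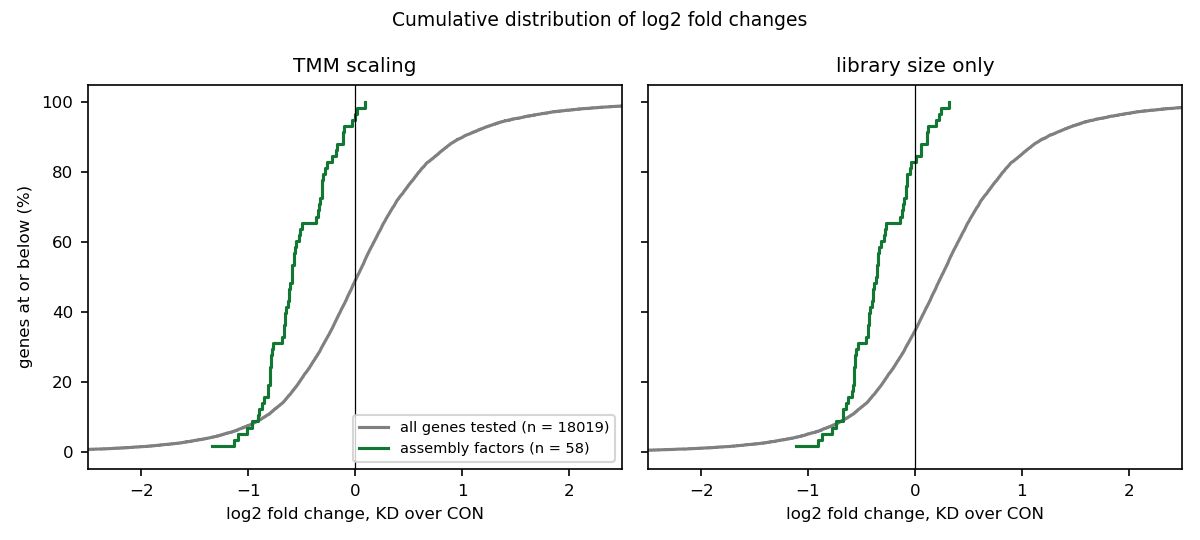
Cumulative share of genes (vertical axis) by log2 fold change, KD over CON (horizontal axis), for the 58 members and for the 18019 genes tested, under TMM scaling and under scaling by library size. The member median is -0.59 against 0.02 in the first panel and -0.36 against 0.25 in the second.

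Levels between genes were compared per length, with the FPKM values deposited by the authors. These are scaled by library total only, so their KD to CON difference is on that scale. Their gene length corresponds to all annotated exons of a gene together, so the order between genes depends on the annotation. That length was 10758 bases for Nop58 and 4099 for Nop56, 8553 for Imp4 and 924 for Imp3, and 10825 for Dcaf13. In CON the members ran from 4.26 FPKM (Dcaf13) to 546 FPKM (Npm1), with a median of 30.1, and in KD the median was 24.2. Subunits of UTP-B were the most even, from 14.6 FPKM (Wdr3) to 22.5 FPKM (Pwp2), a ratio of 1.55. Members of UTP-A ran from 11.4 (Utp15) to 46.3 FPKM (Wdr43) and those of the MPP10 complex from 14.8 (Imp4) to 41.9 FPKM (Imp3). Without division by length the order of Imp4 and Imp3 in CON was the reverse, at 138 and 41.9 CPM. In KD the lowest was Riok1 (3.43 FPKM), and 10 members had a higher mean FPKM than in CON: Tbl3, Imp3, Utp3, Dcaf13, Bms1, Ddx10, Riok2, Nop16, Ftsj3 and Ebna1bp2. Among U3 proteins in CON, Nop58 (29.9 FPKM) and Rrp9 (35.3 FPKM) were near each other and Nop56 stood at 84.9 FPKM. Without division by length, Nop58 (348 CPM) and Nop56 (377 CPM) were near each other in CON and Rrp9 stood at 112 CPM. The order of levels was much the same in KD: across the 58 genes, which share libraries and are not independent, Pearson's r between CON and KD log2 FPKM was 0.963 and Spearman's rho 0.934. The CON level and the fold change had r = -0.154 and rho = -0.1 across the same genes, as a description.

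**Figure D4:**
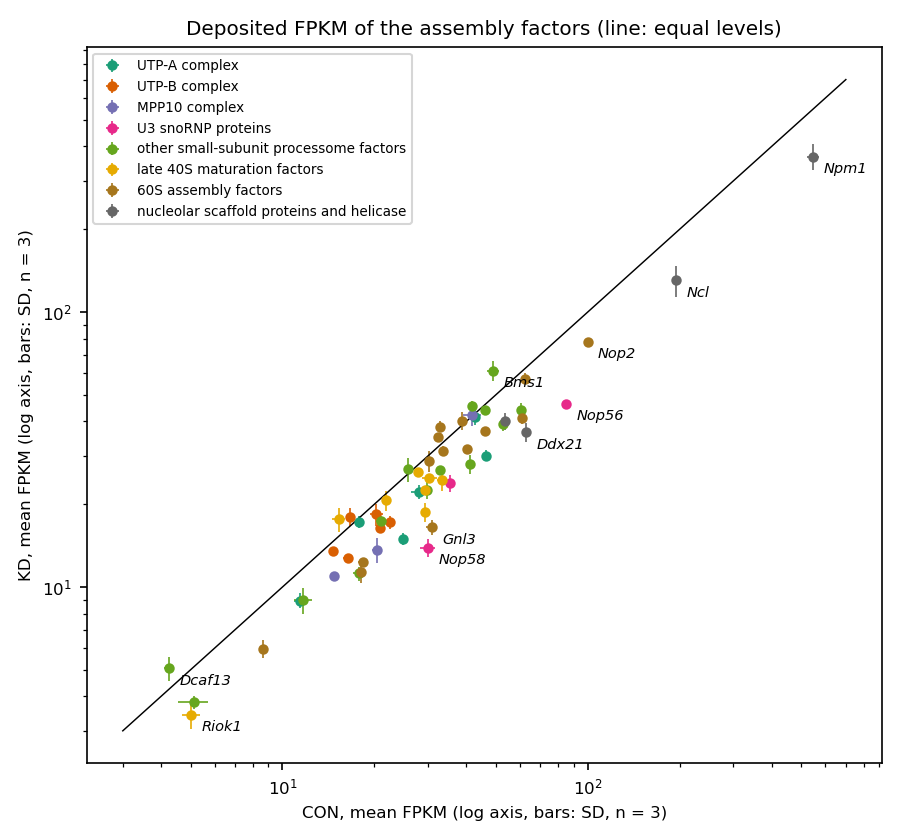
Mean deposited FPKM of each member in CON (horizontal) and KD (vertical), both on log axes, with SD bars (n = 3), coloured by role; the line marks equal levels. Npm1 is highest, at 546 and 367 FPKM, and 10 members, among them Bms1 and Dcaf13, have a higher mean in KD than in CON.

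Ratios of raw counts between paired members in 1 library do not depend on library scaling. Some pairs share a complex and others, such as Riok1 to Riok2 and Gnl3 to Gnl2, are only genes of a like kind. A ratio of counts is not a ratio of proteins. For 14 pairs, chosen after their values were seen, the ratio was compared by a two-sided exact permutation test. With 3 libraries a group that test cannot give a p below 0.1. The groups did not overlap in 10 pairs (each exact p = 0.1, adjusted 0.14) and overlapped in 4. The kinase pair Riok1 to Riok2 had ratios of 0.922, 0.888 and 0.921 in CON and 0.515, 0.565 and 0.543 in KD. The GTPase pair Gnl3 to Gnl2 had 1.57, 1.5 and 1.49 against 0.889, 0.835 and 0.894. Both pairs were thus apart by a wide margin in every library. Rcl1 to Bms1 went from 0.368 ± 0.0122 to 0.282 ± 0.0213, and Imp3 to Mphosph10 from 0.514 ± 0.0533 to 0.785 ± 0.141. Npm1 to Ncl, at 0.732 ± 0.00867 and 0.739 ± 0.0209, overlapped (exact permutation p = 0.7), as did Bop1 to Pes1 (exact p = 0.8), Noc4l to Nop14 (exact p = 0.6) and Imp4 to Mphosph10 (exact p = 0.3).

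**Figure D5:**
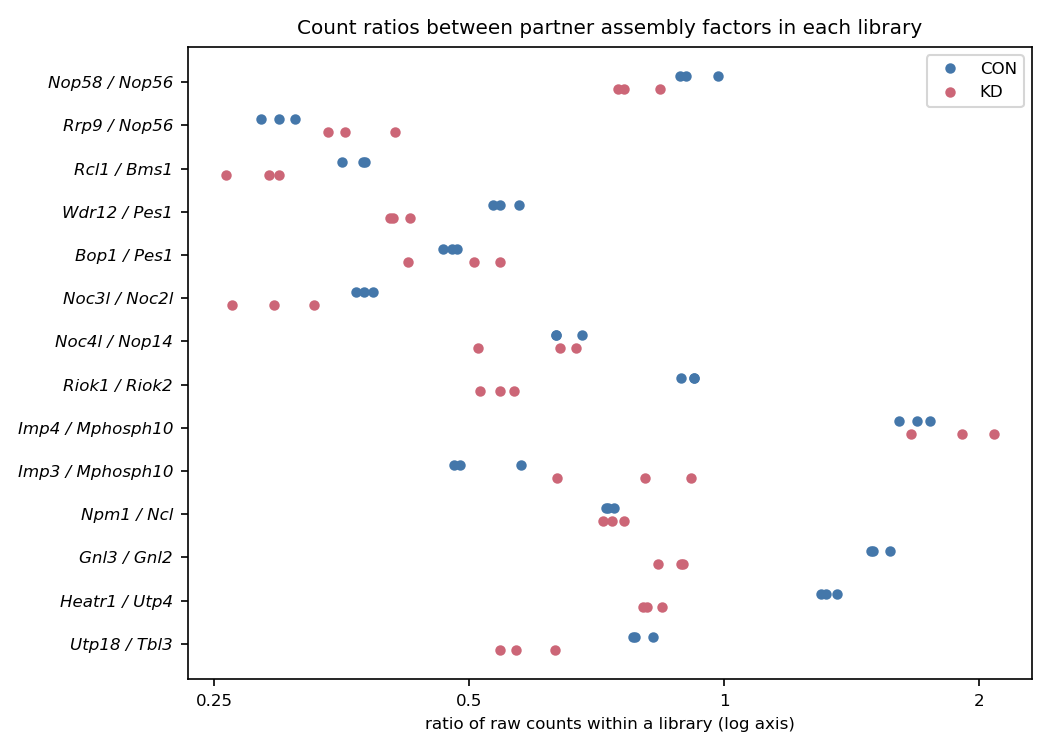
Ratio of raw counts between paired genes, not all of them partners in a complex, in each of the 6 libraries for 14 pairs. The axis is logarithmic, with CON and KD as separate points. Riok1 to Riok2 averages 0.91 in CON and 0.541 in KD, and Npm1 to Ncl lies between 0.72 and 0.762 in all 6.

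Of the 58 members, 6 (10.3%) hold annotated snoRNA genes inside them on the same strand, against 244 of 15111 tested protein-coding genes (1.61%). They are Nop56 with 5 snoRNA genes, among them Snord57 and Snord110, Nop58 with 4, Gnl3, Wdr43 and Ncl with 3 each, and Tsr1 with 2. Ranked by fall among members, Nop58, Gnl3, Nop56, Tsr1, Wdr43 and Ncl took places 1, 2, 3, 8, 9 and 11. Whether holding snoRNA genes goes with a larger fall was not tested, and host genes outside the set were not examined for it. The snoRNAs themselves are not polyadenylated and were not analysed here.

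Counting leaves some uncertainty. Opposite-strand genes share exonic bases with 24 members, beyond Tbl3 and Tsr1 most of all with Wdr3 (820 bases, Spag17), Noc2l (598, Samd11) and Utp14a (473). Near copies elsewhere in the genome (at least 95% identical over at least 300 bases) exist for 8 members, among them Npm1, Nop56 and Pes1. The reads counted on the copies came to at most 0.69% of the member's own. How reads that match both were handled is not known, so this share does not limit how many were lost or misplaced.

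Other genes of the pathway were counted list by list. Of 28 further small-subunit factors 17 fell, 4 rose and 7 did not pass. Their median log2 fold change was -0.26, and with scaling by library size 10 fell and 10 rose. Lyar, a nucleolar growth regulator, fell 2.09-fold (edgeR adjusted p = 3.07e-10) and Fbl (fibrillarin), the methyltransferase that works with Nop56 and Nop58, fell 1.66-fold (edgeR adjusted p = 2e-09). The 4 that rose were Ddx49 (1.35-fold), Trmt112 (1.23-fold), Rrp36 (1.22-fold) and Bud23 (1.11-fold), of which Trmt112 and Bud23 form 1 methyltransferase. Of 52 further 60S factors 43 fell and 3 rose (26 and 6 with scaling by library size), with a median of -0.36. Rbm28 fell 2.32-fold and the giant ATPase Mdn1 1.94-fold, and Ddx24, Rrp1 and Nop53 rose 1.37-fold, 1.16-fold and 1.13-fold. Of 13 box H/ACA and snoRNP assembly genes 9 fell and 1 rose (8 and 3 with scaling by library size), with Gar1 and Naf1 falling 1.84-fold and 1.96-fold and Pih1d1 rising 1.33-fold. Of 13 nuclear exosome genes, which trim and degrade RNA, 10 fell (with scaling by library size 8 fell and Exosc4 rose), with Exosc5 at 1.96-fold and Dis3 at 1.8-fold.

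RNA polymerase I and its factors supply the precursor. Of 16 genes 10 fell and 1 rose (6 and 5 with scaling by library size), with a median log2 fold change of -0.295. Tcof1 fell from 404 ± 3.59 to 164 ± 3.48 CPM and Ubtf from 315 ± 1.97 to 146 ± 0.954 CPM, both factors of ribosomal RNA gene transcription, while Polr1e rose from 19.7 ± 1.5 to 25.5 ± 1.7 CPM. Of 83 cytosolic ribosomal protein genes 78 fell, among them Rpl12 (1.72-fold) and Rps2 (1.6-fold), and the muscle paralog Rpl3l rose, at 3.0 ± 0.611 and 4.95 ± 0.297 CPM. Their median log2 fold change was -0.495, and 62 fell and 3 rose with scaling by library size. Some of these genes had very few reads, among them Rpl24 (1.02 CPM in CON), Rps10 (7.82), Rpl6l (1.62) and Rpl32l (0.303). Near copies were searched for the members only, so reads lost to copies are not known for this list. Of 77 mitochondrial ribosomal protein genes 33 fell and 15 rose. Their median was -0.14, and with scaling by library size 12 fell and 29 rose. Mrpl15 and Mrps18b had the smallest p, with falls of 1.75-fold and 2.14-fold. The 15 that rose were Mrpl14, Mrpl23, Mrpl27, Mrpl41, Mrpl58, Mrps6, Mrps11, Mrps12, Mrps16, Mrps18a, Mrps21, Mrps22, Mrps25, Mrps33 and Mrps36, by 1.14-fold (Mrps18a) to 1.86-fold (Mrpl14). No test compared these lists with the members.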

How the data were processed

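Per the submitters' processing notes, FastQC 0.11.9, STAR 2.5.3a and featureCounts were used with build mm10. Annotation release, strand setting and handling of multi-mapping reads: not given in the sources used here. Raw counts per gene are deposited by the authors, beside FPKM values that the authors made from count, gene length and library total. No column of values was left unmatched (0). Dates had replaced 26 symbols, which were restored from the gene identifier. Between 70 and 71.7% of counts from 1 to 20 were even, so the fit was repeated on counts divided by 2.

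Counts were fitted in R 4.3.3 with edgeR 4.0.16 (filterByExpr, TMM, robust quasi-likelihood F-test) on 18019 genes, adjusted by Benjamini-Hochberg over all of them at a threshold of 0.05. TMM factors were 0.9222 to 0.9265 in CON and 1.08 to 1.084 in KD. The SE is the size of the log2 fold change over the square root of F. The fit was also run on simulated data in which a small set of genes changed, as many up as down. Such data cannot test the TMM assumption for these libraries, and no result here rests on that run. Alternatives were scaling by library size, DESeq2 1.42.0 and its size factors, other count filters, a replicate block and leaving out each library. Positions and overlaps come from GENCODE M21, near copies from BLAST 2.17.0, promoters from RefSeq (GRCm38.p6), and exact tests from SciPy 1.17.1.

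Members, roles, lists and tests were chosen with earlier results of these data known. Library values are given for the 2 smallest adjusted p per role, members that did not pass, the 3 largest falls and calls that differ between TMM and library size. Further lists are given by counts, with the 2 smallest p and the rises named. The gene pairs, the CCGGAAG motif and the printed promoters were chosen after values were seen.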

Additional observations from a re-analysis of the deposited data

How the results depend on the processing

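Scaling by library size only was the setting that moved the results most. It gave 6 members higher in place of 0, 10 members lower by at least 1.5-fold in place of 31, a member median of -0.361 and 3535 genes lower and 8280 higher over the whole table. The log2 fold change turned from negative to positive in 8 members, at 0.115 for Tbl3, which passed under neither scaling, 0.0134 for Imp3, 0.127 for Utp3, 0.0535 for Ddx10, 0.2 for Riok2, 0.227 for Nop16, 0.0612 for Ftsj3 and 0.117 for Ebna1bp2. The shift of all genes between the scalings is part of their construction, and which scaling is nearer to RNA per cell was not tested. The call of all 58 members was the same with DESeq2's size factors, DESeq2's test, a filter of 1 CPM in 3 libraries and counts divided by 2, and 1 call (Ebna1bp2, adjusted p = 0.0979) was lost without a count filter. Leaving out 1 library at a time gave 49 to 53 members lower and a median of -0.619 to -0.586. Same-numbered CON and KD libraries did not deviate together (correlations -0.0608, 0.0151 and -0.0387). These values cannot tell whether same-numbered libraries shared a culture or a batch, which the labels do not state. With a replicate block 51 members were lower, Ebna1bp2 being lost (adjusted p = 0.0959), and the median was -0.59. Every member had at least 379 counts in each library, which is the depth behind the smallest values.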
